A study of Homo sapiens with 6 samples.

Results

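The enzymes that build serine, glycine, mitochondrial one-carbon units, asparagine and cysteine were examined in bile duct cancer cells exposed to regorafenib, an oral inhibitor of several receptor kinases and of RAF kinases. The set held 10 genes, PHGDH, PSAT1, PSPH, SHMT2, MTHFD2, MTHFD1L, ALDH1L2, ASNS, PCK2 and CTH, taken by gene symbol. A probe set, the group of short probes that reads 1 transcript on an Affymetrix array, was taken for a gene when it was annotated to that symbol alone. In this way 21 of 54613 probe sets and 10 of 19775 genes were included. Another 3 probe sets carried MTHFD1L or PHGDH together with other symbols and were left out.

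The experiment comprised 6 arrays, 1 for each condition, so there was no replicate of any condition. HuCCT1, labelled a bile duct carcinoma line, and KKU-100, labelled a poorly differentiated cholangiocarcinoma line, each received solvent alone, regorafenib at a low dose labelled 1 µM, or regorafenib at a high dose labelled 10 µM. The study's text gives lower doses than the labels, so the doses are called low and high throughout. According to the labels all 6 cultures were stably transduced and selected with puromycin, with no construct named. Each line is a single established culture grown without the other cells of a tumour. The study's methods grew the lines in different media, which differ in amino acid content, so the medium and the line cannot be told apart.

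Values are signals, the background-corrected brightness of a probe set on a linear scale, and their changes are given as log2 ratios of the arrays. Array medians ran from 28.8 to 29.3, the lowest signals between 3.63 and 4.05 and the highest between 19904 and 20640.3. Of the biliary epithelial markers, KRT8 and KRT18 were bright in both lines. With solvent KRT7 read 10354 in HuCCT1 and 917.1 in KKU-100, and SOX9 read 1408 and 920.5. KRT19 was 9006 in HuCCT1 with solvent but 9.5 in KKU-100, and EPCAM was 6432 against 11.0, so these epithelial markers were below the array median in the line labelled KKU-100. Markers of other cell types were mixed in level. Among hepatocyte markers ALB lay between 7.0 and 10.8 on all arrays and APOA1 between 16.8 and 22.7, TTR and CYP3A4 between 57.9 and 88.6, and SERPINA1 read 2411 to 3509 in HuCCT1 and 147.0 to 161.0 in KKU-100. The leukocyte markers PTPRC and LYZ lay at or below 15.8 and CD3E between 37.3 and 44.3. Of the endothelial markers, CDH5 and KDR lay at or below 8.9, VWF between 21.7 and 54.8 and PECAM1 between 54.8 and 74.1. Of the fibroblast markers, COL3A1 was between 6.5 and 8.6 in HuCCT1 and between 538.0 and 778.5 in KKU-100, while COL1A1 (163.5 and 163.7), DCN (39.0 and 38.5) and PDGFRB (26.5 and 26.6) were close between the lines with solvent. The part of these markers in the results was not tested. None of the 10 measured housekeeping genes moved past 1.5-fold at either dose in either line.

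Serine is made from the glycolytic intermediate 3-phosphoglycerate in consecutive reactions by PHGDH, PSAT1 and PSPH. Mitochondrial SHMT2 then splits serine into glycine and a one-carbon unit carried on folate. MTHFD2 oxidizes that unit, MTHFD1L is a formyl-tetrahydrofolate synthetase, and ALDH1L2 oxidizes formyl-tetrahydrofolate and yields NADPH. ASNS makes asparagine from aspartate and glutamine, CTH makes cysteine by the transsulfuration route, and PCK2 turns mitochondrial oxaloacetate into phosphoenolpyruvate, from which serine can be made when glucose is short. Many of these genes are known targets of ATF4, which drives the cell's transcriptional answer to amino acid shortage, and several are used heavily by proliferating tumour cells.

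Where several probe sets read a gene, the one with the highest mean log2 signal represents it, and the others are given beside it. The counts below use genes whose mean log2 signal over the arrays of a line lay at or above the median of all non-control probe sets. This was a signal of 29.1 in HuCCT1 and 28.9 in KKU-100. Of the 10 enzymes, 9 passed in both lines. MTHFD1L did not pass in either. The enzymes were chosen with earlier results of these data known, so the counts and ranks below are descriptions only.

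In HuCCT1 the set stood higher with regorafenib at nearly every enzyme. At the low dose 6 of the 9 enzymes were higher than with solvent by more than 1.5-fold and none was lower. Of the 12789 genes that passed in this line, 3.68% were higher and 3.32% lower by the same margin. At the high dose 8 of 9 were higher and none lower, where 8.23% of all genes were higher and 6.44% lower. The median log2 change of the 9 enzymes was 1.21 with the low and 2.23 with the high dose, and that of all genes was 0.02 at both. ALDH1L2 enters the HuCCT1 counts and medians here and below. Its solvent signal there, 14.8, lay below the filter, and it passed through its treated arrays. Both doses were read against the same solvent array, so their changes are not independent of each other. With 1 array a condition there is no test within a line, and because each array read a whole culture, more RNA in every cell and more cells that hold it cannot be told apart.

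In KKU-100 fewer enzymes passed that margin. At the low dose 2 of 9 were higher and 1 was lower, against 9.75% higher and 7.32% lower of the 12694 genes that passed there. At the high dose 3 of 9 were higher and none lower, against 9.44% and 4.86% of all genes. Without probe sets named _x_at, _s_at or _a_at 5 enzymes were higher at the high dose, so this count depends on the probe set. The median log2 change of the enzymes was 0.13 with the low and 0.54 with the high dose, and that of all genes 0.06 at both. Over all 10 enzymes, MTHFD1L included, the medians for the low and high dose were 1.14 and 2.13 in HuCCT1, and for KKU-100 they were 0.11 and 0.45.

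**Figure D1:**
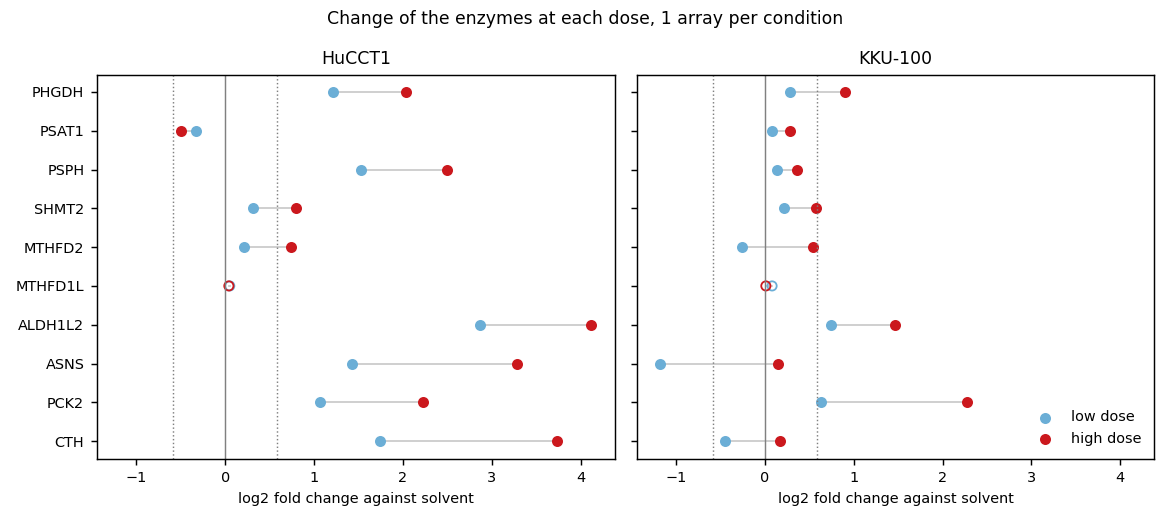
Log2 change of each enzyme against the solvent array of its line, for HuCCT1 (left) and KKU-100 (right) on the same axis, with the low dose in blue and the high dose in red; open circles mark MTHFD1L, which was below the level filter, dotted lines stand at 1.5-fold, and each point is 1 array against 1. In HuCCT1 the high-dose points of ALDH1L2, CTH and ASNS lie above 3, whereas in KKU-100 only PCK2 lies above 2; the ALDH1L2 points of HuCCT1 are ratios over a solvent signal below the array median.

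The opening step of serine synthesis, PHGDH, gave signals of 231.6, 537.1 and 948.5 in HuCCT1 with solvent, low dose and high dose. In KKU-100 the same arrays read 205.2, 248.4 and 382.5. PHGDH was therefore highest at the high dose in both lines, with a 4.09-fold higher signal in HuCCT1 and a 1.86-fold higher signal in KKU-100, from solvent levels within 1.5-fold of each other. The log2 change in HuCCT1 exceeded that in KKU-100 by 0.94 with the low dose and by 1.14 with the high.

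PSAT1, the aminotransferase that follows PHGDH, did not share this order in HuCCT1. Its signals in HuCCT1 were 48.5, 38.6 and 34.3, close to the array median, and in KKU-100 831.7, 882.0 and 1011. The log2 changes were -0.33 and -0.50 in HuCCT1, those in KKU-100 were 0.08 and 0.28, and all were within 1.5-fold. PSAT1 was the single enzyme of the 9 that stood lower than solvent at both doses in HuCCT1. With solvent it was 17.1-fold higher in KKU-100 than in HuCCT1. The other probe set of PSAT1 read only 8.3, 7.8 and 7.2 in HuCCT1, near the lowest signals of the array, and 2308, 2444 and 3509 in KKU-100, where its high-dose change of 0.60 lay just past the margin.

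PSPH, the phosphatase that releases serine, was read by 3 probe sets. The one with the highest mean gave 170.2, 492.9 and 963.0 in HuCCT1, against 984.1, 1077 and 1260 in KKU-100. A separate probe set gave 366.0, 1070 and 1750 in HuCCT1, against 362.4, 467.0 and 719.6 in KKU-100. Both stood higher with each dose in both lines, and in HuCCT1 they were alike in size, with log2 changes of 2.50 and 2.26 at the high dose. They disagreed on KKU-100, where the high-dose change was 0.36 on the first and 0.99 on the other, and on the solvent arrays, where KKU-100 stood 2.53 log2 units above HuCCT1 on the first and -0.01 on the other. The first carries the ending _s_at, by which the manufacturer marks probes shared by more than 1 transcript. The remaining PSPH probe set lay between 25.2 and 46.9 on all arrays.

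**Figure D2:**
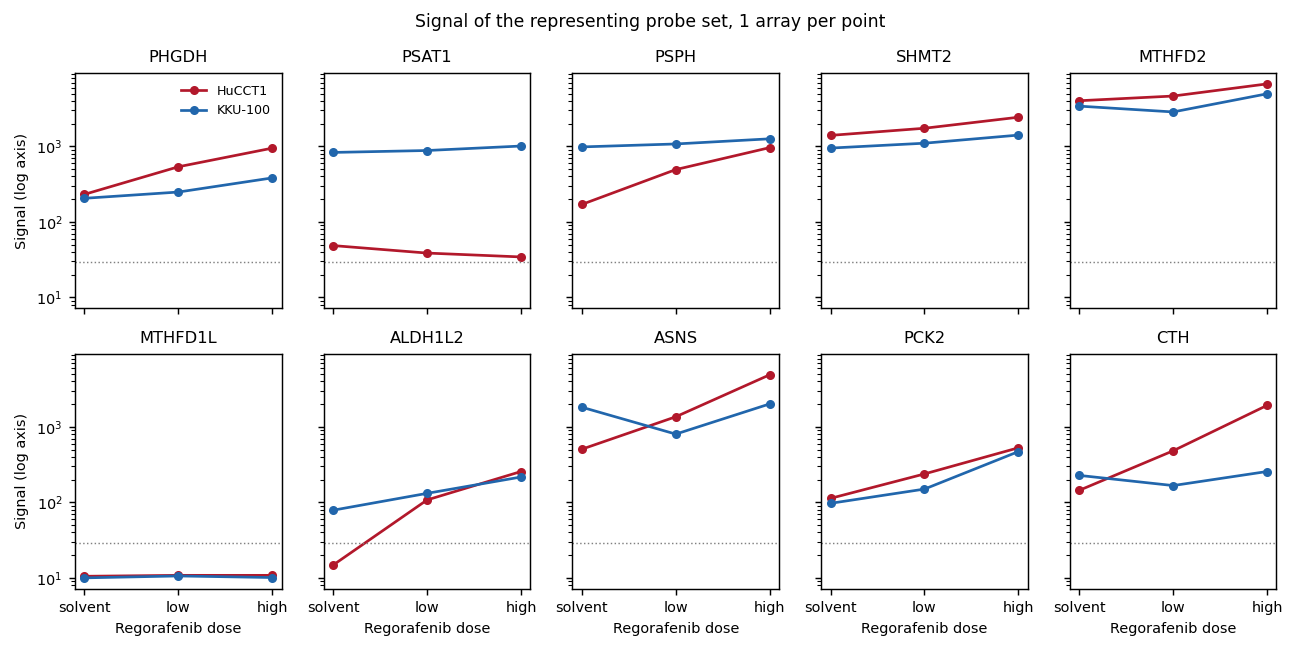
Signal of each enzyme on the 6 arrays, on a log axis, with 1 point per array for solvent, low and high dose of HuCCT1 (red) and KKU-100 (blue), lines that join the arrays of a line of cells, and a dotted line at the mean of the array medians. PSAT1 separates the lines at every treatment, while ASNS and CTH in HuCCT1 start below KKU-100 with solvent and end above it at the high dose.

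SHMT2, which makes glycine and a one-carbon unit from serine in mitochondria, was bright in both lines. It read 1399, 1739 and 2434 in HuCCT1, against 949.7, 1102 and 1411 in KKU-100. The signal stood higher with each dose in both lines, by 1.74-fold at the high dose in HuCCT1 and by 1.49-fold, just short of the margin, in KKU-100. All 3 probe sets of SHMT2 had this order, with high-dose log2 changes between 0.66 and 0.80 in HuCCT1 and between 0.39 and 0.74 in KKU-100.

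MTHFD2, the mitochondrial methylenetetrahydrofolate dehydrogenase, gave 4027, 4646 and 6728 in HuCCT1. In KKU-100 it gave 3416, 2860 and 4974, so the low-dose array was the lowest of the 3 and the high-dose array the highest. The high-dose signals were 1.67-fold and 1.46-fold those of solvent in HuCCT1 and KKU-100. Its other probe set, dimmer and named _x_at for probes that can cross-hybridize, read 69.0, 72.2 and 85.8 in KKU-100 and did not have the dip at the low dose.

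ALDH1L2, the mitochondrial enzyme that oxidizes formyl-tetrahydrofolate and yields NADPH, was dim in HuCCT1 with solvent and not on the treated arrays. Its signals were 14.8, 107.8 and 256.5 in HuCCT1, against 78.8, 131.8 and 217.0 in KKU-100. The gene passed the level filter in HuCCT1 through its treated arrays, and a ratio over the solvent signal there is a ratio over a value below the array median. With signals under the median of an array raised to it, a choice made after seeing the data, ALDH1L2 in HuCCT1 was at least 3.74-fold higher at the low dose and at least 8.91-fold higher at the high dose. In KKU-100 the high-dose signal was 2.75-fold that of solvent. At the high dose the lines therefore lay closer together than with solvent. The other probe sets of ALDH1L2 were as dim on every array, between 10.3 and 27.6, and each stood in the order solvent, low dose, high dose in both lines.

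MTHFD1L, the mitochondrial formyl-tetrahydrofolate synthetase, read between 10.0 and 10.8 on all 6 arrays with its representing probe set and between 7.2 and 11.9 with the other. Those values are near the lowest signals of the arrays, so no level or change of MTHFD1L could be read from them.

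ASNS and CTH differed most between the lines. ASNS read 506.7, 1363 and 4907 in HuCCT1, 2.69-fold and 9.68-fold above solvent at the low and high dose. In KKU-100 it read 1824, 803.2 and 2018, so the low-dose array stood 2.27-fold below solvent and the high-dose array within 1.5-fold of it. The log2 change in HuCCT1 exceeded that in KKU-100 by 2.61 with the low dose and 3.13 with the high. A second ASNS probe set stayed between 6.7 and 10.0 throughout, near the lowest signals.

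CTH, the gamma-lyase that releases cysteine from cystathionine, read 144.4, 482.7 and 1930 in HuCCT1, 3.34-fold and 13.4-fold above solvent. In KKU-100 it read 227.9, 167.1 and 256.6, with log2 changes of -0.45 and 0.17 that lay within the margin. The other CTH probe set read 65.4, 174.3 and 748.5 in HuCCT1, against 85.5, 74.8 and 84.1 in KKU-100 and had the same difference between the lines. The excess of the HuCCT1 change over the KKU-100 change was 2.19 with the low dose and 3.57 with the high, the widest gap among the enzymes at the latter.

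PCK2, the mitochondrial phosphoenolpyruvate carboxykinase, had high-dose changes of almost the same size in both lines. It read 113.1, 238.3 and 529.0 in HuCCT1, against 97.2, 150.1 and 471.0 in KKU-100. The high-dose signal was 4.68-fold that of solvent in HuCCT1 and 4.84-fold in KKU-100, and the log2 changes differed between lines by 0.45 with the low dose and by -0.05 with the high.

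**Figure D3:**
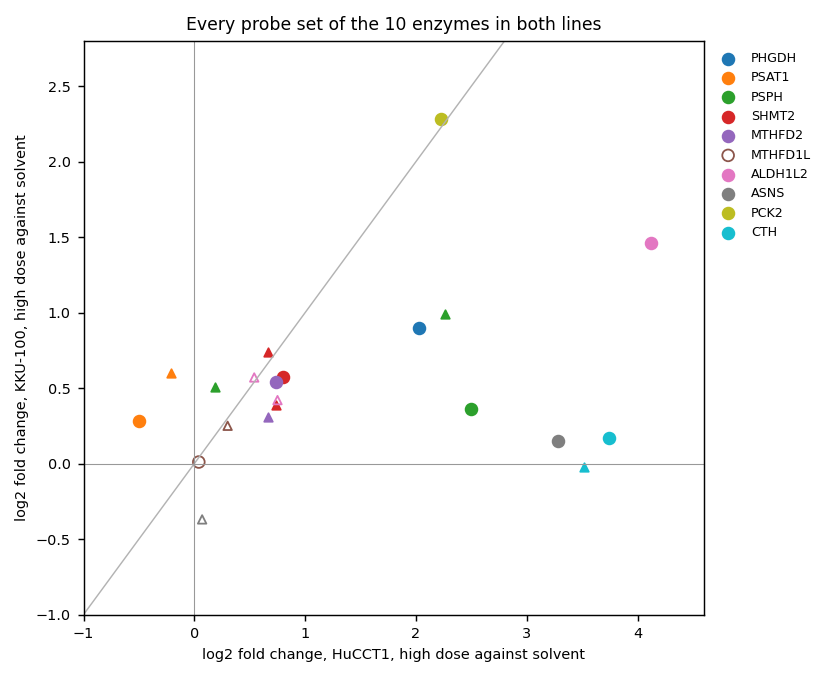
High-dose log2 change against solvent in HuCCT1 (horizontal) and KKU-100 (vertical) for each of the 21 probe sets, coloured by gene, with large circles for the probe set that represents the gene, triangles for the others, open symbols for those below the level filter over the 6 arrays, and a grey diagonal where the lines would be equal. PCK2 lies on the diagonal, and the representing probe sets of ASNS and CTH lie far to the right of it near 0 for KKU-100.

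Placed among all genes that passed, several enzymes stood at the top of the HuCCT1 response. Because the set was chosen with earlier results of these data known, its ranks are no independent support. By log2 change at the high dose, with signals raised to the array median as above, CTH ranked 1, ASNS 3, ALDH1L2 6, PSPH 21, PCK2 34 and PHGDH 47 of 12789 genes. SHMT2 and MTHFD2 followed at 535 and 637. At the low dose the order was ALDH1L2 at 9, CTH at 16, PSPH at 31, ASNS at 38, PHGDH at 58 and PCK2 at 87.

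In KKU-100 the enzyme placed highest at the high dose was PCK2, at 7 of 12694 genes on the same scale. ALDH1L2 was at 54 and PHGDH at 388, with SHMT2 at 1227 and MTHFD2 at 1379.

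**Figure D4:**
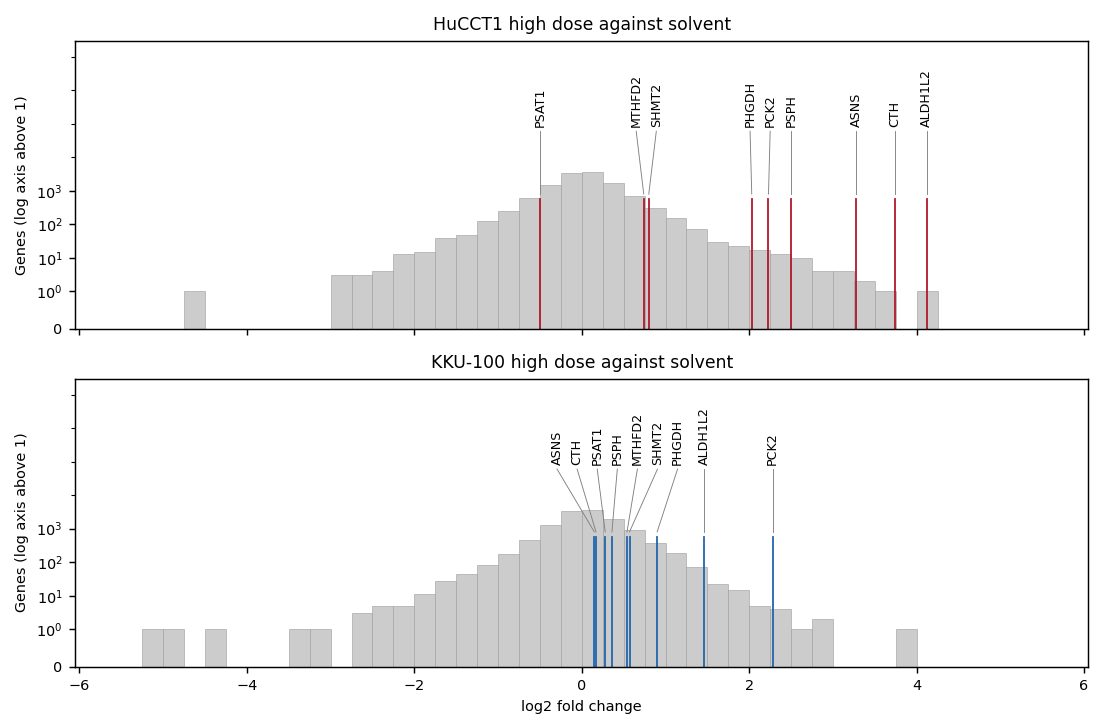
Number of genes past the level filter by high-dose log2 change against solvent (grey bars, log axis above 1 gene), with a line at the change of each enzyme that passed, for HuCCT1 (top) and KKU-100 (bottom). In HuCCT1 the enzymes other than PSAT1, MTHFD2 and SHMT2 lie in the upper tail, and in KKU-100 most lie within the body of the distribution.

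The high dose was also read directly against the low dose. In HuCCT1, 6 of 9 enzymes were higher by more than 1.5-fold at the high dose and none was lower, with a median log2 difference of 0.97, where 6.57% of all genes were higher and 4.64% lower. In KKU-100 the count was again 6 of 9 and 0, with a median of 0.62, where 4.53% of all genes were higher and 1.74% lower. The 6 were PHGDH, PSPH, ALDH1L2, ASNS, PCK2 and CTH in HuCCT1, and PHGDH, MTHFD2, ALDH1L2, ASNS, PCK2 and CTH in KKU-100. The KKU-100 count depends on the probe set. On their other probe sets CTH (0.17) and MTHFD2 (0.25) lay within the margin there, while a separate PSPH probe set (0.62) lay past it. For ASNS the difference was 1.85 in HuCCT1 and 1.33 in KKU-100, for CTH 2.0 and 0.62, and for PCK2 1.15 and 1.65. ASNS in KKU-100 was thus far higher at the high than at the low dose while within the margin of solvent, because its low-dose array was low.

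The signal stood in the order solvent, low dose, high dose for 8 of the 9 enzymes that passed in HuCCT1, PSAT1 being the exception, and for 6 of 9 in KKU-100. Of all genes that passed, 21% had this order in HuCCT1 and 20.7% in KKU-100. In KKU-100 the enzymes without it were MTHFD2, ASNS and CTH, each of which was lowest on the low-dose array.

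On the solvent arrays, 5 of 9 enzymes were higher in KKU-100 than in HuCCT1 by more than 1.5-fold and none was lower, where 22.7% of 12833 genes were higher and 23.8% lower. PSAT1 was 17.1-fold, PSPH 5.78-fold, ASNS 3.60-fold and CTH 1.58-fold higher, and ALDH1L2 at least 2.74-fold, its HuCCT1 signal raised to the array median. The count depends on the probe set. On the other PSPH probe sets the log2 differences were -0.01 and 0.39, and on the other CTH probe set 0.39, all within the margin, while the other SHMT2 probe sets were lower in KKU-100 past it, at -1.01 and -0.61. Without probe sets named _x_at, _s_at or _a_at 2 enzymes were higher and 1 lower. On their representing probe sets PHGDH, PCK2, MTHFD2 and SHMT2 were within the margin, with log2 differences between -0.56 and -0.17. Among these enzymes, PSPH, ALDH1L2, ASNS and CTH, are also ones whose regorafenib change was larger in HuCCT1, and that line's solvent array enters both values.

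A fit across the genes was made with limma, with the cell line as a block, so that the arrays of both lines serve as the repeats of a dose. At the low dose against solvent 0 of 12833 genes passed an adjusted p of 0.05, a share of 0%, with 788 genes higher and 650 lower at an unadjusted p under 0.05. At the high dose 0 passed, again 0%, with 1285 higher and 629 lower unadjusted. For the high against the low dose 0 passed, 0%, with 913 higher and 421 lower unadjusted. With 2 residual degrees of freedom, no dose effect on any gene of the arrays was called, the enzymes included. The count rests on the solvent arrays: without that of KKU-100, limma called 15 genes at the low dose, 566 at the high dose and 302 between the doses, and without that of HuCCT1 1280, 629 and 318. Each such fit has 1 residual degree of freedom and holds the solvent array of the other line only. The treated arrays of both lines enter its estimates.

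Within that fit PCK2 had a high-dose log2 change of 2.25 (SE 0.19) with a limma adjusted p of 0.0793, the smallest value in the fit, which 26 genes shared. SHMT2 had 0.69 (SE 0.11) with a limma adjusted p of 0.128, MTHFD2 0.64 (SE 0.12) with 0.145, and PHGDH 1.47 (SE 0.30) with 0.162. The large but unequal changes had wide errors: ALDH1L2, read against its dim HuCCT1 solvent signal, had 2.79 (SE 0.62), CTH 1.96 (SE 0.79) and ASNS 1.71 (SE 0.73), with limma adjusted p of 0.170, 0.338 and 0.354. PSPH had 1.43 (SE 0.48) and PSAT1 -0.11 (SE 0.23). An unadjusted p under 0.05 was reached by 6 of the 9 enzymes, beside 14.9% of all genes. Without the KKU-100 solvent array the high-dose changes ran from -0.41 for PSAT1 and 0.77 for SHMT2 to 3.98 for ALDH1L2. Without the HuCCT1 solvent array they ran from 0.19 for PSAT1 to 2.15 for PCK2. Of the low-dose changes, PCK2 had 0.85 (SE 0.19), and the limma adjusted p of the enzymes ran from 0.376 to 0.963. Without the HuCCT1 solvent array the low-dose change of ASNS was -1.31, with a limma adjusted p of 0.0152, and without the KKU-100 solvent array that of ALDH1L2 was 3.0, with 0.0198. From 0 enzymes, the calls between the doses went to 5 without the HuCCT1 and 4 without the KKU-100 solvent array. Of the 12833 genes, 318 and 302 were then called.

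Between the lines, over the 3 treatments, limma called 27.9% of the 12833 genes higher in KKU-100 and 26.3% lower. PSAT1 was higher in KKU-100 by 4.50 log2 units (SE 0.18, limma adjusted p = 4.69e-05) and PSPH by 1.35 (SE 0.40, limma adjusted p = 0.0334). The PSPH difference holds for its representing probe set only. A separate one read 366.0, 1070 and 1750 in HuCCT1 against 362.4, 467.0 and 719.6 in KKU-100, higher on no treatment in KKU-100. SHMT2 was lower there, with a difference of -0.67 (SE 0.09, limma adjusted p = 0.00221), as were MTHFD2 at -0.46 (SE 0.10, limma adjusted p = 0.0105) and PHGDH at -0.87 (SE 0.24, limma adjusted p = 0.0289). In all 5 of 9 enzymes passed, a share of the same order as that of all genes. The treated arrays enter these means, so for PHGDH the difference is wider than on the solvent arrays. Without either low-dose array 3 enzymes passed: PSAT1, SHMT2 and MTHFD2 did, and PHGDH and PSPH did not. Without either high-dose array PHGDH did not pass. Without either solvent array ASNS and CTH passed as well, lower in KKU-100 by a difference of -1.02 and -2.22. Of the 12833 genes, 4836 and 4830 passed without the low-dose array of HuCCT1 and of KKU-100. Without their high-dose arrays 5295 and 5281 passed, and without their solvent arrays 7486 and 7479.

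Whether the response itself differed between the lines was tested in limma as a difference in the slope over solvent, low and high dose, taken as equal steps. No gene passed, 0% of those tested, with 328 genes of a more positive slope in KKU-100 and 234 of a more positive slope in HuCCT1 at an unadjusted p under 0.05 and a smallest adjusted p of 0.919. The slope in KKU-100 was less than in HuCCT1 by 1.79 log2 units a step for CTH (value -1.79, SE 0.25, unadjusted p = 0.000567), the enzyme furthest apart. PSPH had -1.07 (SE 0.18), ALDH1L2 -1.33 (SE 0.32), ASNS -1.56 (SE 0.46) and PHGDH -0.57 (SE 0.19), each with an unadjusted p under 0.05 and a limma adjusted p of 0.919. The ALDH1L2 value leans on its HuCCT1 solvent signal, which lay below the filter. Without that array it was -0.52. PCK2 had 0.03 (SE 0.24), SHMT2 -0.11 (SE 0.12) and MTHFD2 -0.10 (SE 0.20). A difference in response between the lines was therefore not called for any enzyme from the 6 arrays. CTH and ASNS passed when 1 array was left out: without the low-dose array of KKU-100 the values were -1.79 and -1.56 (limma adjusted p of 0.0227 and 0.0181), and without its high-dose array -2.32 and -2.82 (0.0124 and 0.00357). Over all genes the calls were 7 without the solvent array of KKU-100, 11 without its low-dose array and 204 without its high-dose array.

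The bases before the transcription starts were read from RefSeq (GRCh38.p14) for the enzymes that the table of promoters held, 7 genes with 11 starts. PSPH, SHMT2 and ALDH1L2 were not in it. The motif TGATGNAA, the core of the C/EBP-ATF element that ATF4 dimers bind, was searched on both strands in the 250 bases before each start, as the only motif. It was in 3.14% of the 35116 promoters in the table and in 3 of the 11 of these enzymes, of which 1 belonged to ASNS and 2 starts of MTHFD1L shared one. The 100 bases before the start are shown for the ASNS start with the motif, whose bases are in capitals, for CTH, PCK2 and PHGDH, which were higher in HuCCT1 without it, and for PSAT1, which was not higher there.
ASNS, chr7:97872409-97872508, minus strand: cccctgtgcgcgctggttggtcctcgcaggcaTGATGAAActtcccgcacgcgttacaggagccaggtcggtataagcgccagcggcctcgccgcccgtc
CTH, chr1:70411168-70411267, plus strand: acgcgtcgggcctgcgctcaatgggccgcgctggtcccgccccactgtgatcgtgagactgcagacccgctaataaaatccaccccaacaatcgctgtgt
PCK2, chr14:24094211-24094310, plus strand: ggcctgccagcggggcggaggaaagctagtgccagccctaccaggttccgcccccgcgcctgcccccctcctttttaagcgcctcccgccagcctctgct
PHGDH, chr1:119711834-119711933, plus strand: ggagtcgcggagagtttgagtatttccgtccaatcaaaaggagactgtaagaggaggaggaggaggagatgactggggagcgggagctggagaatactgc
PSAT1, chr9:78297025-78297124, plus strand: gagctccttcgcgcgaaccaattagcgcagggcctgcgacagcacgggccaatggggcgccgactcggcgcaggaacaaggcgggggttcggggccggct

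In ASNS the motif lies 68 to 61 bases before the start. These sequences run 5′ to 3′ on the strand of the gene. A match is a description of the letters, and its absence from this window says nothing of binding elsewhere in the gene, introns included. The ASNS promoter with the motif belongs to the gene whose signal was 9.68-fold above solvent at the high dose in HuCCT1 and within 1.5-fold of it in KKU-100.

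Neighbouring genes of the pathway were counted in the same way, beside the 8.23% of all genes that were higher and the 6.44% that were lower in HuCCT1 at the high dose. Of 16 other folate cycle genes that passed there, none was higher and 2 were lower at the high dose, with a median log2 change of -0.10. The cytosolic counterpart of the mitochondrial folate enzymes, MTHFD1, read 3259, 3389 and 2937, and thymidylate synthase TYMS read 1880, 2098 and 1863, neither past the margin; both were picked after their values were seen. Of 9 genes that use glycine or serine 2 were higher and 0 lower, of 13 of the methionine cycle and transsulfuration 1 and 1, and of 14 of aspartate, glutamine and proline metabolism 1 and 1. Their medians were 0.11, 0.21 and -0.03. At the low dose none of the genes in these 4 lists was higher in HuCCT1. There 1 folate cycle gene and 1 methionine cycle gene were lower, where 3.68% of all genes were higher and 3.32% lower.

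In KKU-100 at the high dose the folate cycle list had 1 of 15 higher and 0 lower, glycine and serine use 2 of 9 and 1, the methionine list 0 of 14 and 3, and the aspartate, glutamine and proline list 0 of 14 and 0. Of all genes that passed in this line, 9.44% were then higher and 4.86% lower. At the low dose 4 of 15 folate cycle genes were higher and 0 lower, with a median of 0.25, beside 9.75% and 7.32% of all genes. SLC46A1, the proton-coupled folate carrier, stood out in this line with signals of 297.0, 589.8 and 803.6. GLDC, the glycine decarboxylase of the cleavage system, stood lower there with 58.7, 32.3 and 35.1, while in HuCCT1 it read 68.0, 56.9 and 119.9.

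MAT2A, which makes S-adenosylmethionine, stood lower with each dose in both lines. It read 2213, 1164 and 724.8 in HuCCT1, against 1683, 1249 and 996.3 in KKU-100, a log2 change of -1.61 and -0.76 at the high dose. This is the opposite direction to CTH in HuCCT1, the enzyme downstream in the same sulfur pathway.

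**Figure D5:**
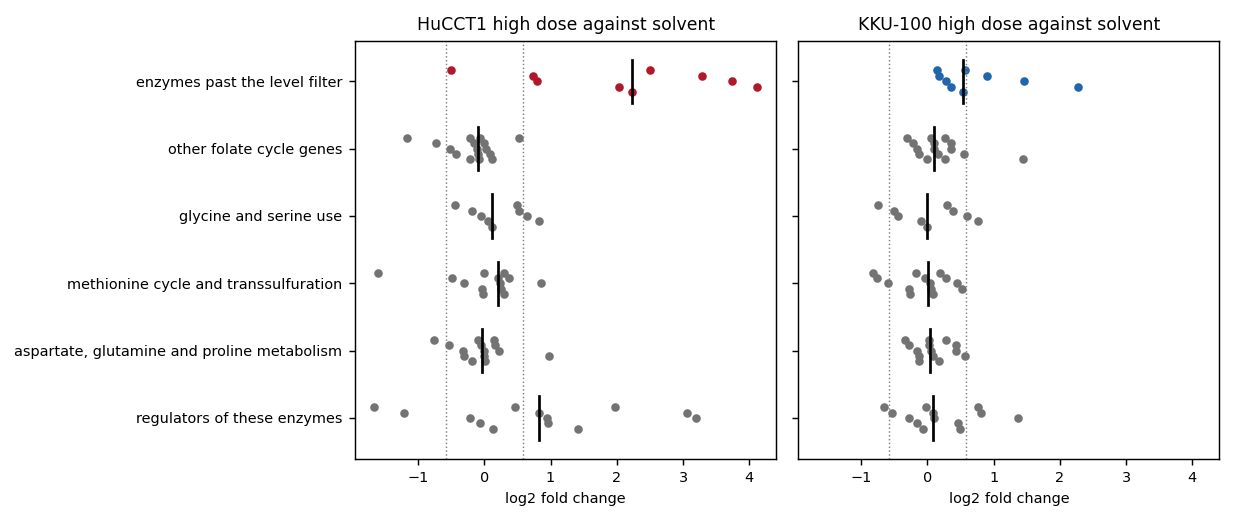
High-dose log2 change against solvent of every gene past the level filter in the enzyme set and in 5 lists of neighbouring genes, for HuCCT1 and KKU-100 on the same axis, with 1 point per gene, a bar at each list's median and dotted lines at 1.5-fold. The median of the enzymes was 2.23 in HuCCT1 and 0.54 in KKU-100, and among the other lists only the regulators had a median past the margin, 0.83 in HuCCT1.

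The regulators of these enzymes were counted in each line, and a difference between the lines was not called for any of them. In HuCCT1 at the high dose 7 of 13 were higher and 2 lower, with a median of 0.83, beside 8.23% and 6.44% of all genes. In KKU-100 at the low dose 1 was higher and 6 were lower, with a median of -0.40, beside 9.75% and 7.32% of all genes. At the high dose 3 were higher and 1 was lower, with a median of 0.09, beside 9.44% and 4.86%.

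DDIT3, the stress factor CHOP, read 316.1, 726.3 and 2898 in HuCCT1, against 1177, 450.7 and 2066 in KKU-100. TRIB3, a pseudokinase target of ATF4, read 1088, 2123 and 4276 in HuCCT1, against 597.0, 602.6 and 1548 in KKU-100. Both had the high-dose array highest in each line, and DDIT3 in KKU-100 had its lowest signal on the low-dose array, as ASNS, CTH and MTHFD2 did. CEBPB, a partner of ATF4, read 2923, 5604 and 4938 in KKU-100 and was higher than solvent at both doses. EIF2AK3, the kinase PERK, read 1106, 443.0 and 701.2 there and was lower at both doses.

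MYC, a known activator of SHMT2 and other genes of this pathway, read 2480, 1149 and 786.7 in HuCCT1, against 874.3, 1098 and 790.1 in KKU-100. ATF5 read 154.3, 92.3 and 66.6 in HuCCT1. Both stood lower with each dose in HuCCT1, where SHMT2 and the rest of the enzymes that passed, except PSAT1, stood higher. ATF4 itself, picked after its values were seen, read 3397, 5817 and 6506 in HuCCT1, against 7049, 5357 and 6958 in KKU-100, so the HuCCT1 solvent array had the lowest ATF4 signal of the 6. ATF3, picked likewise, read 105.1, 99.9 and 874.9 in HuCCT1, against 1134, 121.2 and 1588 in KKU-100. ASNS shared with ATF3 and DDIT3 a low-dose array in KKU-100 below that line's solvent array. The part of these regulators in the enzymes' values was not tested.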

How the data were processed

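Total RNA of 6 cultures was hybridized to Affymetrix expression arrays, and the authors deposited 1 table of linear signal intensity per probe set. The submitters' processing notes name MAS5, whose version is not given in the sources used here; the study's methods name log2 values, but the deposited intensities are linear. Their medians, 28.8, 29.3, 28.9, 29.2, 29.0 and 28.8, lie close together, and the scaling that set them stays unknown. After 62 control probe sets were left out, 41091 of 54613 probe sets had 1 symbol in the platform annotation, 1801 several and 11721 none. Values were taken as log2 with no further scaling. Each gene was read from the probe set of highest mean log2 signal. Genes at or above the 50th percentile of mean log2 signal of all non-control probe sets were kept. A 1.5-fold margin, as in the study's text, was used for single arrays.

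Dose effects were fitted with limma 3.58.1 (lmFit and eBayes with a trend, R 4.3.3), with the line as a block, and p-values were adjusted by the Benjamini-Hochberg method over all 12833 genes. The fit was tested on simulated data. Quantile normalization, median centring, a floor at the 20th percentile, other filters, a 2-fold margin, other probe-set rules, other moderation and leaving out each array were tried. Python 3.11.15, numpy 2.4.6 and pandas 2.3.3 were used. All 10 enzymes are named. Up to 4 genes of each neighbouring list and line are named, by the largest high-dose change among those that both doses moved past 1.5-fold in one direction. Genes named otherwise are given as such. The enzymes and lists were chosen with earlier results of these data known. Nothing says that the arrays came from separate experiments, so p-values measure only the spread between these arrays, and their number limits the precision.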

Additional observations from a re-analysis of the deposited data

Results flagged for a closer look

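For PSAT1 the dose slope in KKU-100 exceeded that in HuCCT1 by 0.39 log2 units a step (SE 0.17, unadjusted p = 0.0641, limma adjusted p = 0.919). It is given here because the HuCCT1 changes, -0.33 and -0.50, and the KKU-100 changes, 0.08 and 0.28, lay on opposite sides of 0. All 4 are within 1.5-fold, and the difference was not called.

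EIF2AK3, the kinase PERK, had HuCCT1 changes of 0.21 and 1.42, and its KKU-100 changes were -1.32 and -0.66, on opposite sides of 0. The slope in KKU-100 minus that in HuCCT1 was -1.04 (SE 0.415, unadjusted p = 0.0499), with a limma adjusted p of 0.919, so this difference was not called either.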

How the results depend on the processing

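Quantile normalization, median centring, a floor on low signals, other level filters and other moderation left every count of enzymes past 1.5-fold and every limma count of enzymes within 1.5 times its value. The choice of probe set did not. With the median over a gene's probe sets, the enzymes' median log2 change in HuCCT1 was 0.61 (low dose), 1.25 (high dose) and 0.66 (high against low). The low dose in KKU-100 then had 1 enzyme higher, and with solvent KKU-100 had 3 enzymes higher and 1 lower than HuCCT1. Without probe sets named _x_at, _s_at or _a_at, the enzymes' median was 0.33 at the low dose in KKU-100, 5 enzymes were higher there at the high dose with a median of 0.74, and with solvent 2 were higher and 1 lower in KKU-100, with a median of -0.14. ASNS at the low dose in HuCCT1 then read -0.15, from a probe set near the lowest signals, and PSPH between the solvent arrays -0.01. Raising signals to the array median, added after seeing the data, moved no count of enzymes and 3 values, all of ALDH1L2: 1.90 and 3.16 in HuCCT1 with the low and the high dose, and 1.45 between the solvent arrays. With a 2-fold margin KKU-100 had 0 enzymes higher at the low dose, and 2 between its doses. The median between the solvent arrays was 0.66 over the enzymes past the filter.

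In limma the median over probe sets turned the sign of MTHFD2 (0.05) and ASNS (-0.12) at the low dose, PSAT1 at the high dose (0.04) and ASNS between lines (0.03). Leaving out each array in turn, the calls ranged from 0 to 1280 genes and 0 to 1 enzymes at the low dose, 0 to 629 and 0 to 8 at the high dose, 0 to 318 and 0 to 5 between doses, 4830 to 7486 and 3 to 7 between lines, and 0 to 204 and 0 to 2 for the slope. Values that changed sign ranged, at the low dose, from -1.31 to 1.56 for ASNS, -0.79 to 2.09 for CTH, -0.06 to 1.72 for PSPH, -0.42 to 0.18 for PSAT1 and -0.21 to 0.16 for MTHFD2. PSAT1 at the high dose ranged from -0.41 to 0.19 and between doses from -0.28 to 0.30, PSPH between doses from -0.12 to 1.32, ASNS between lines from -1.02 to 0.54, and the slope from -0.63 to 0.43 for MTHFD2 and -0.49 to 0.54 for PCK2. These fits hold fewer arrays by construction. The limma fits already compare doses within each line, and the labels give no replicate numbers by which to pair arrays further. Signals near the lowest of the arrays, as for MTHFD1L, the second ASNS probe set and PSAT1 in HuCCT1 on its other probe set, limit what can be read as a change.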

Other observations

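The genes whose signal over the 6 arrays, centred within each line, was most like the mean of the 10 enzymes were LYRM9 (r = 0.998), NBPF3 (0.997), ONECUT2 (0.995), MIR924HG (0.995), PHF20 (0.994), PTER (0.994), CLCN3 (0.993), MEIS2 (0.992), WDR19 (0.992) and ANKRD44 (0.991), by Pearson's r among 4108 candidates past 1.5-fold in at least 1 comparison. The mean of the enzymes itself was -0.97, 0.04 and 0.93 in HuCCT1 with solvent, low and high dose, and -0.23, -0.21 and 0.44 in KKU-100. LYRM9 had log2 changes of 0.79 and 1.57 in HuCCT1, and its KKU-100 changes were 0.06 and 0.66. These points share the solvent array within each line, and high values of r are common when many candidates are set against 6 arrays.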
